A study of Rattus norvegicus with 30 samples.

Results

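The 150 genes described here were the most hippocampus-enriched genes of sham-operated rats in RNA-sequencing of 3 brain areas. For each gene the median CPM (read counts scaled to an equal library total) of the sham rats was taken in each area, 0.5 CPM was added, and the hippocampal value was divided by the larger of the cortical and thalamic values. Genes with a hippocampal median of at least 5 CPM were ranked by this ratio, and the first 150 of 11134 such genes, out of 26404 counted, were the members. Adult male Sprague-Dawley rats received either a lateral fluid percussion injury over the left parietal lobe, the traumatic brain injury (TBI) group, with an impact of 3.32 atm through a craniectomy 5 mm wide (rats 6 to 10), or the same anaesthesia and surgery without the impact (sham, rats 1 to 5). Perilesional cortex, ipsilateral thalamus and dorsal hippocampus were collected from the same 10 rats 3 months after the operation, which gave 30 libraries. The craniectomy was thus common to both groups. The hippocampal tissue was dissected as dentate gyrus with part of CA3, so the members describe that piece and not the whole hippocampus.

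Dentate granule cells, the main neurons of this tissue, receive cortical input through the entorhinal cortex and send mossy fibres to the pyramidal cells of CA3. The dentate gyrus is known for generating neurons in adult rodents and for its part in memory and in epilepsy after head injury. Genes that are high in this tissue and low in neocortex and thalamus can mark granule cells, CA3 neurons or other cells of the dissected piece. Genes carry Ensembl identifiers in the deposited tables, and none of these could be paired with a gene name here. The members are therefore described by their rank in the list, from 1 for the highest ratio to 150, and 4 of them by identifier. Their check against markers of granule cells, CA3 neurons or other cell types, and their order by function, were not possible.

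Library totals lay between 21992859 and 31799879 counts. In the hippocampus 10 genes took 44.1% of the counts of sham rat 4 and 40.9% of those of sham rat 5, against 9.95% to 16.4% in the other 8 hippocampal libraries. The hippocampal libraries labelled rat 3 (sham) and rat 8 (TBI) went against their labels. Of 283 genes that stood at least 2-fold apart between these rats in both cortex and thalamus, 15 stood at least 2-fold apart in the opposite order in the hippocampus and 0 in the same order, and no other of the 45 pairs of rats had more genes exchanged than kept. For 1 gene the level was 2.57 and 3.44 CPM in the cortex of rats 1 and 8, and 6.87 and 6.26 CPM in the hippocampus of rats 1 and 3, with 0.66 CPM in the hippocampus of rat 8. Their column names carry the same code, followed by consecutive numbers whose meaning the labels do not give. The labels were kept, and the main hippocampal counts and the members named for a hippocampal difference are given with and without the libraries labelled rat 3 and rat 8. In bulk tissue, fewer cells of a type and less RNA per cell cannot be told apart.

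The ratio that chose the members fell from 17.8 at rank 1 to 10.7 at rank 10, 5.16 at rank 50, 3.32 at rank 100 and 2.67 at rank 150. These values come from the sham libraries that chose the members and are a description without a test. Just inside the limit, the members at ranks 148 to 150 had ratios of 2.69, 2.67 and 2.67, and just outside it the next genes had 2.66, 2.65 and 2.65, so the end of the list was not a step in the data. Sham hippocampal medians of the members ran from 5.08 to 1981 CPM, with a median of 42.8 CPM over the members. Their median was 7.05 CPM in the sham cortex and 3.21 CPM in the sham thalamus. The cortex was the larger of the other areas for 108 members and the thalamus for 42. The list depended on which sham rats were used: 123 to 138 of the 150 members stayed when 1 sham rat was left out, the fewest without rat 1.

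At the head of the list, the member at rank 1 measured 56.9, 46.4, 68.6, 51.8 and 71.9 scaled CPM in the sham hippocampus, with rats in ascending order here and below, and 63.2, 66.8, 79.0, 76.7 and 67.7 in the TBI hippocampus. Scaled CPM are CPM with normalization factors that put all 30 libraries on 1 scale. In the cortex the same gene lay between 0.60 and 1.33 in sham rats and between 1.23 and 2.49 in TBI rats, and the cortical groups overlapped only at their edges. Rank 2 was found almost solely in the hippocampus, with 5.46 to 14.4 scaled CPM there against 0.00 to 0.20 in the cortex and 0.00 to 0.79 in the thalamus over all 10 rats. Rank 3 measured 50.1 to 59.2 scaled CPM in the hippocampus of the 10 rats and differed 1.18-fold at most among sham rats, against 2.53 to 5.63 in the cortex.

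The rule did not use the libraries labelled as TBI rats, so these test whether the enrichment held in other animals. If the hippocampal libraries labelled rats 3 and 8 were exchanged, these rats would enter both the rule and the test. With the hippocampal library labelled rat 3 left out of the rule, 135 of the 150 members stayed. In the 5 TBI rats, 134 of the 150 members were higher in the hippocampus than in the cortex and 0 were lower (edgeR quasi-likelihood test, Benjamini-Hochberg adjusted p under 0.05 over all genes tested), where 29.5% of all 17355 genes tested were higher and 30.4% lower. The median log2 difference of the members was 2.30. Against the thalamus 149 members were higher and 0 lower, where 32.9% of all genes tested were higher and 32.0% lower, and the median log2 difference was 3.35. The thalamic libraries were, according to the study's methods, sequenced on another instrument with longer reads, while the labels give the same instrument for all areas, so in thalamic comparisons the area and the way it was sequenced cannot be told apart. Without the hippocampal library labelled rat 8, the counts were 134 and 148. All 150 members were tested here, although 4 had too few cortical and 14 too few thalamic counts for a test within those areas. These entered mainly through their hippocampal counts, so for them the filter itself favours a higher hippocampal level.

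When the same rule was applied to the TBI rats, 108 genes were on both lists, which is 72.0% of each list of 150. Of the other 42 members, 22 ranked 151 to 300 in the TBI rats, 15 ranked lower, and 5 were under 5 CPM in the TBI hippocampus. The ratio in TBI rats was above 1 for 149 members and above 2 for 141, with a median of 4.28.

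**Figure D1:**
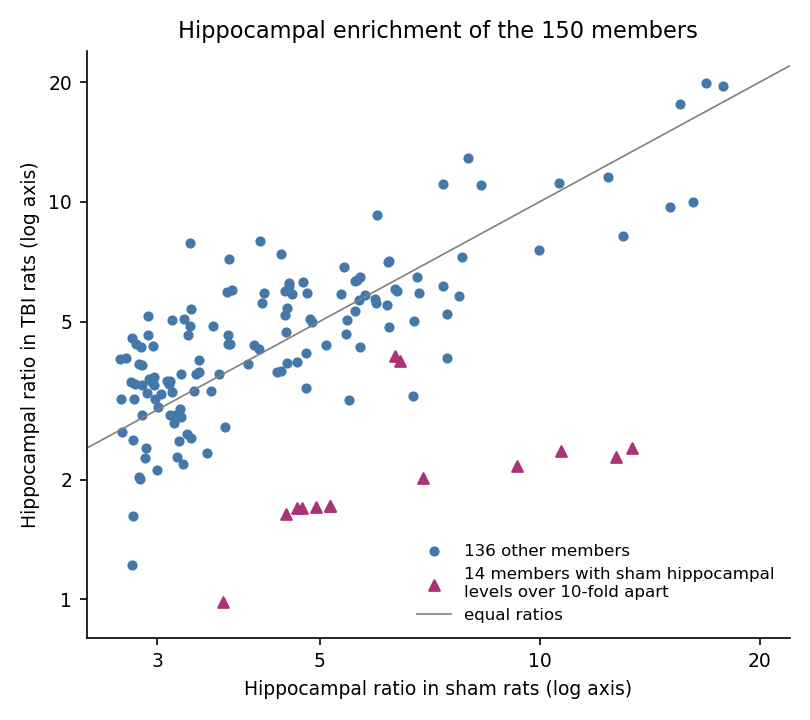
Hippocampal ratio of each member in sham rats (horizontal, log axis, used by the rule) and in TBI rats (vertical, log axis, not used by the rule), with the line of equal ratios. Most of the 136 circles lie near the line, while the 14 triangles, whose levels differed over 10-fold among sham hippocampi, lie below it, at TBI ratios of 0.98 to 4.09.

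A group of 14 members stood apart in the sham hippocampus, at ranks 6, 8, 10, 13, 22, 27, 30, 50, 51, 53, 60, 62, 68 and 88. Their hippocampal levels differed 13.7-fold to 81.3-fold between the lowest and highest sham rat, where the other 136 members had a median range of 1.43-fold. They were set apart after these values were seen and get no test as a group. In sham rats 1 to 5 the member at rank 50 measured 80.3, 454, 66.5, 673 and 3768 scaled CPM in the hippocampus. In TBI rats 6 to 10 it measured 10.8, 42.4, 76.7, 111 and 61.3. Sham rat 5 was far above all others and TBI rat 6 lowest, while sham rats 1 and 3 lay within the range of the TBI rats.

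That order was nearly common to the group. Sham rat 5 had the highest level of the 10 rats in all 14 members, and TBI rat 6 the lowest in 11. Sham rat 2 was above both sham rats 1 and 3 in 12 of them, and sham rat 4 was above both in 13. Rank 68 kept another order, with 8.48, 15.9, 2.02, 1.26 and 38.4 scaled CPM in sham rats 1 to 5, so that sham rat 4 was its lowest library. In 6 of the 14, at ranks 22, 50, 51, 53, 60 and 62, the counts stayed within 1.25-fold of another of them in every hippocampal library, and ranks 50 and 51 never differed by more than 1.01-fold. Genes with such counts may share reads with near-identical copies, and their separate levels are uncertain.

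**Figure D2:**
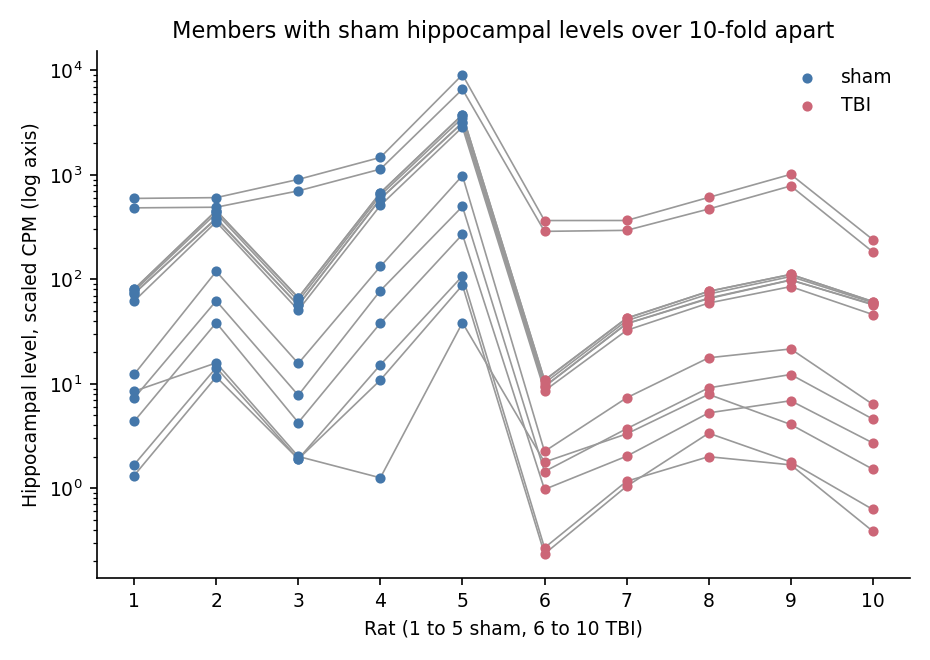
Hippocampal level in scaled CPM (log axis) of the 14 members with sham values over 10-fold apart, in rats 1 to 10. Each grey line joins 1 member across rats, which have no order, and the lines run nearly in parallel, with sham rat 5 at the top.

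Of these 14 members only 2 were members by the rule in TBI rats, their TBI ratios had a median of 1.87, and none was called higher in the hippocampus than in the cortex of TBI rats. They made up 14 of the 16 members not called in that comparison. The remaining pair, at ranks 92 and 130, had 1 high cortical library. Rank 92 measured 24.5 scaled CPM in the cortex of TBI rat 6 against 5.05 to 9.93 in the other 9 cortical libraries, and rank 130 measured 29.6 there against 3.76 to 9.75.

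The group of 14 also varied among the cortical libraries. Their summed cortical level was 2158 scaled CPM in sham rat 1, 2133 in TBI rat 8 and 1961 in TBI rat 7, against 164 to 787 in the other 7 rats. The rats that were high in the cortex were thus not those that were high in the hippocampus. In the thalamus the sum was 45.2 to 187. In the hippocampus it reached 37896 in sham rat 5 and lay between 719 and 6550 in the other 9 libraries. The sum of all 150 members was 51998 scaled CPM in the hippocampus of sham rat 5 and 14412 to 20189 in the others, and once the 14 were set aside all 10 hippocampal libraries lay between 13639 and 15524.

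In the hippocampus itself, none of the 150 members differed between TBI and sham at the adjusted threshold (edgeR, smallest adjusted p = 0.480), where 0.0% of the 16963 genes tested were called. At an unadjusted p under 0.05, 3 members were higher and 20 lower, which is 2.0% and 13.3% of the members, where 5.22% and 3.22% of all genes tested were. Without the libraries labelled rats 3 and 8, 3 were higher and 23 lower, which is 2.0% and 15.3%, where 8.1% and 4.09% of all genes tested were. The rule chose genes for a high sham hippocampal level, so this contrast shares its sham arm with the choice, and a lower value in TBI rats is no independent result. Of the 20 lower members 13 belonged to the uneven group, whose log2 fold changes ran from -4.62 to -1.81. Among the other 136 members the log2 fold change had a median of -0.06 and ran from -0.58 to 0.61, with 7 lower at an unadjusted p under 0.05.

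With DESeq2, 8 members were called lower in the hippocampus, where 1.51% of the 2722 genes given an adjusted p were called in either direction. All 8 were of the uneven group, at ranks 6, 8, 22, 50, 51, 53, 60 and 62. The size of the hippocampal difference of the uneven group depended on few libraries: its median log2 fold change was -4.04 with all 10 libraries, when 13 of the 14 had an unadjusted p under 0.05, and -2.39 without sham rat 5, when 11 had. Without sham rats 4 and 5 it was -1.73, and 1 of the 14 had such a p. Without the libraries labelled rats 3 and 8 it was -4.46, with 12 of the 14. Column names of 7 hippocampal libraries shared 1 code, which may stand for a sequencing run. These libraries were those of sham rats 2, 3 and 4 and of TBI rats 6, 7, 8 and 9. In them the median was -2.71 and 11 of the 14 had an unadjusted p under 0.05. No member was called at the adjusted threshold there, where 0.0% of 17168 genes tested were. Without sham rat 5, and without sham rats 4 and 5, edgeR also called 0.0% of all genes tested. A second code was given for sham rat 5 and TBI rat 10, too few for a test, and none for rat 1. The 14 were set apart by their sham values, and 6 of them had counts close to those of another. Their p-values are thus not independent of each other or of the choice, and the counts only describe the group.

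Outside the uneven group the clearest hippocampal value was that of the member at rank 125, ENSRNOG00000024707. It measured 6.97, 5.80, 7.69, 7.32 and 7.32 scaled CPM in the sham hippocampus and 14.7, 10.8, 9.78, 7.43 and 11.1 in the TBI hippocampus. The lowest TBI library lay inside the sham range and the other 4 above it (log2 fold change 0.61, SE 0.15, edgeR adjusted p = 0.480, unadjusted 0.000808). Without the libraries labelled rats 3 and 8 the log2 fold change of this member was 0.69 (SE 0.18, edgeR adjusted p = 0.0759). Next by unadjusted p was the member at rank 109, at 13.4, 10.7, 11.8, 11.3 and 8.69 scaled CPM in sham and 7.87, 5.80, 8.63, 9.76 and 7.72 in TBI rats. TBI rat 9 lay inside the sham range and the other 4 below it (log2 fold change -0.51, SE 0.14, edgeR adjusted p = 0.480), and without the libraries labelled rats 3 and 8 the value was -0.52 (edgeR adjusted p = 0.162). At rank 102 the level was 34.3, 40.0, 36.7, 43.2 and 40.0 in sham and 27.8, 29.5, 36.8, 31.5 and 29.8 in TBI rats. TBI rat 8 was the single TBI library inside the sham range, and it is one of the pair whose labels are in doubt. Without the libraries labelled rats 3 and 8 this was the 1 member called in the hippocampus (log2 fold change -0.41, SE 0.09, edgeR adjusted p = 0.0406), where 1.55% of all genes were called. At rank 32 was the 1 member whose hippocampal groups did not overlap (log2 fold change -0.29, edgeR adjusted p = 0.505), where 1.06% of all genes had groups apart. Without the libraries labelled rats 3 and 8 its value was -0.28 (edgeR adjusted p = 0.320). Groups overlapped at rank 96, with 278 to 330 scaled CPM in sham and 197 to 286 in TBI rats (log2 fold change -0.29, edgeR adjusted p = 0.505, and 0.210 without those libraries). They also overlapped at ranks 105, 1 and 136, which after rank 125 had the smallest unadjusted p among positive values (log2 fold changes 0.43, 0.25 and 0.17, edgeR adjusted p = 0.531, 0.565 and 0.624). For these 3 members the values without the libraries labelled rats 3 and 8 were 0.49, 0.27 and 0.15 (edgeR adjusted p = 0.372, 0.372 and 0.633).

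In the perilesional cortex, of 146 members with enough cortical counts to test, 20 were higher and 32 lower in TBI rats than in sham rats (edgeR, adjusted p under 0.05), which is 13.7% and 21.9%, where 14.2% and 11.6% of all 17185 genes tested were higher and lower. In either direction 35.6% of the members and 25.8% of all genes were called. The median log2 fold change was -0.08 for the members and -0.01 for all genes tested. When 1 rat was left out, the median of the members lay between -0.19 and -0.02. The other 4 members had too few cortical counts. Over the members, the median shift from the median of the other cortical libraries was 0.28 (log2) in sham rat 1 and 0.25 in sham rat 2. It was -0.24 in TBI rat 9 and -0.11 to 0.09 in all others. When 1 rat was left out, 18 to 22 members were higher and 23 to 33 lower, the fewest lower without rat 9. Most changes were small: the 20 rises ran from 0.43 to 1.67 on the log2 scale with a median of 0.77, the 32 falls from -1.13 to -0.31 with a median of -0.48, and 5 members changed over 2-fold. Groups did not overlap for 24 members, all of them called, 11 higher and 13 lower, which is 16.4% of the members tested, where 18.5% of all genes had groups apart.

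Which arm chose the members bears on this split, since the rule took genes that were low in the sham cortex. With the list made from the TBI rats, 9 were higher and 47 lower, and the median log2 fold change was -0.23. With genes on both lists (105 tested), 8 were higher and 29 lower, 7.62% and 27.6%. So 29 of the 32 members that fell were on both lists, and 8 of the 20 that rose. With the rule on scaled CPM, the split was 23 higher and 22 lower, and without sham rats 4 and 5 in the hippocampal medians it was 25 higher and 26 lower. None of the 14 uneven members was called in the cortex.

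ENSRNOG00000024707 had the largest rise in the cortex. It measured 1.84, 0.69, 2.64, 0.59 and 1.10 scaled CPM in sham rats and 9.28, 3.04, 3.14, 3.56 and 2.34 in TBI rats. TBI rat 10 lay inside the sham range and TBI rat 6 stood far above the other 4 (log2 fold change 1.67, SE 0.50, edgeR adjusted p = 0.0340). This call was lost when any 1 of rats 1, 2, 4, 5 and 9 was left out, with adjusted p up to 0.0762, while the fold change stayed between 1.15 and 2.08.

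The second largest rise was that of the member at rank 49, ENSRNOG00000020501. Its cortical level was 1.58, 1.22, 2.08, 1.22 and 1.49 scaled CPM in sham rats and 7.86, 3.04, 3.46, 3.88 and 2.37 in TBI rats. Every TBI library was above every sham library (log2 fold change 1.47, SE 0.30, edgeR adjusted p = 0.00343), and TBI rat 6 was again the highest. In the hippocampus it measured 18.1 ± 1.57 in sham and 20.4 ± 3.18 in TBI rats (SD, n = 5), groups that overlapped.

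The largest fall was that of the member at rank 107, ENSRNOG00000008337. It measured 3.01, 2.93, 3.06, 2.71 and 2.77 scaled CPM in the sham cortex and 1.12, 1.42, 1.13, 1.78 and 1.06 in the TBI cortex. The groups stood well apart (log2 fold change -1.13, SE 0.17, edgeR adjusted p = 0.000286). In the thalamus (2.92 ± 0.62 against 2.69 ± 0.77, SD, n = 5) and in the hippocampus (14.4 ± 4.85 against 11.2 ± 3.85) the groups overlapped.

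Next was the member at rank 14, ENSRNOG00000014971, with 14.0, 9.74, 5.35, 6.53 and 5.75 scaled CPM in the sham cortex and 6.10, 3.79, 3.42, 3.66 and 3.74 in the TBI cortex. TBI rat 6 lay inside the sham range and the other 4 TBI libraries below it (log2 fold change -0.95, SE 0.27, edgeR adjusted p = 0.0203). The sham values of rats 1 and 2 were the highest. The call was lost when any 1 of TBI rats 7, 8 and 9 was left out, with adjusted p up to 0.0525, and without sham rat 1 the fold change was -0.68. In the hippocampus it measured 57.0 ± 5.99 in sham and 48.8 ± 3.49 in TBI rats (SD, n = 5), with overlapping groups and an edgeR adjusted p of 0.505.

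Other members that rose in the cortex included the head of the list. The member at rank 1 rose from 0.92 ± 0.27 to 1.91 ± 0.52 scaled CPM (SD, n = 5, log2 fold change 1.11, edgeR adjusted p = 0.00373). Its hippocampal ratio, for which the thalamus was the larger of the other areas, was 17.8 in sham and 19.5 in TBI rats. Rank 3 rose from 3.13 ± 0.58 to 4.76 ± 0.57 with groups apart, and rank 26 from 3.62 to 6.75 with groups apart. Outside the uneven group, rank 145 had the lowest hippocampal ratio in TBI rats. It measured 18.8, 19.5, 15.9, 15.9 and 17.0 scaled CPM in the sham cortex and 48.2, 42.9, 29.3, 24.4 and 38.4 in the TBI cortex (log2 fold change 1.10, SE 0.16, edgeR adjusted p = 0.00030). Every TBI library was above the sham range, and the hippocampal ratio of this member was 2.77 in sham rats, set by the thalamus, and 1.22 in TBI rats, set by the cortex. Among further falls, the members at ranks 99, 147 and 83 went from 105 to 61.2, from 15.5 to 9.09 and from 28.7 to 17.2 scaled CPM, each with groups apart.

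**Figure D3:**
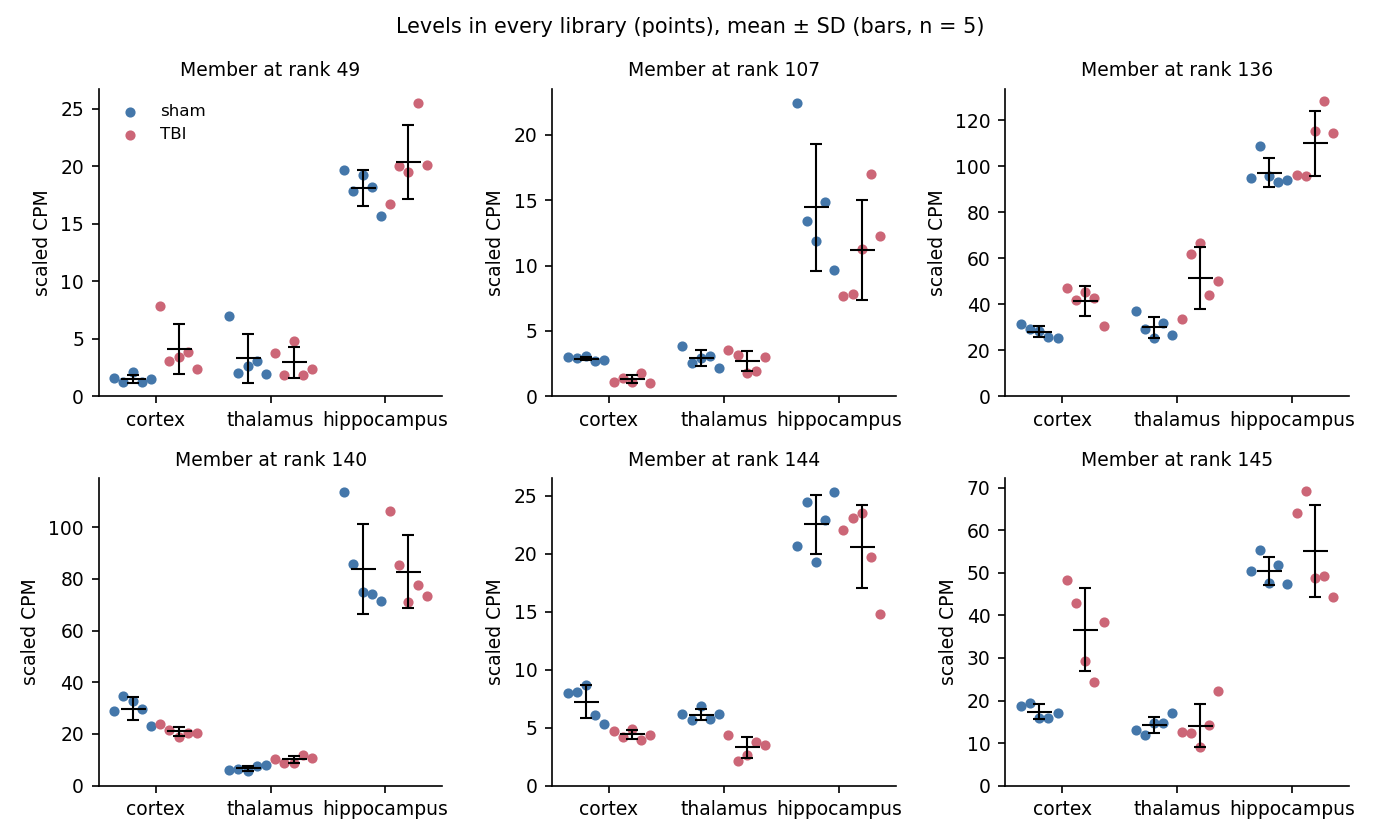
Scaled CPM of 6 members in every library (points), with the mean and SD of the 5 sham and the 5 TBI rats in each area. Ranks 49, 136 and 145 were higher and ranks 107, 140 and 144 lower in the TBI cortex, and in the TBI thalamus ranks 136 and 140 were higher and rank 144 lower.

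Of the 20 members that rose in the cortex, 14 had a positive value in the thalamus and 10 in the hippocampus, whether or not these passed a test. Of the 32 that fell, 22 of the 30 tested in the thalamus and 23 in the hippocampus had a negative value. The 22 and 23 are 73.3% and 71.9% of those tested, where 62.5% of all members tested in the thalamus and 69.3% in the hippocampus had a negative value, so the hippocampal share was close to that of the whole list. The 14 and 10 are 70.0% and 50.0%, where 37.5% and 30.7% of all members had a positive value. Over all genes tested, 49.8% were positive in the thalamus and 46.9% in the hippocampus, and 50.2% and 53.1% were negative. The hippocampal 50.0% was thus close to the share over all genes. All 14 uneven members were among those with a negative hippocampal value. These shares were not tested against each other, and all areas came from the same rats, so the counts are not independent.

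Whether a response differed between cortex and hippocampus was tested directly. For 12 members the log2 fold change differed (edgeR interaction of area and treatment, adjusted p under 0.05), 8 with a higher and 4 with a lower response in the cortex, which is 8.0% of the members, where 3.04% of 17688 genes tested were called, 1.45% higher and 1.59% lower. The rule took genes that were high in the sham hippocampus and low in the sham cortex, so this contrast shares its sham arm with the choice of the members. With the list made from the TBI rats, 2 had a higher and 9 a lower response in the cortex, and of the 108 genes on both lists 2 had a higher and 4 a lower one. With the rat as a block, 8 of the 150 members had a higher and 9 a lower response, where 5.92% of all genes were called. All 12 were also called in the cortex. They stood at ranks 3, 15, 26, 45, 49, 83, 99, 104, 114, 133, 142 and 145. For rank 99 the response was -0.76 in the cortex and 0.05 in the hippocampus (difference -0.84, SE 0.15), and for rank 26 it was 0.93 and -0.22 (difference 1.12, SE 0.21). Without the hippocampal libraries labelled rats 3 and 8, ranks 3, 26, 99 and 114 were called, where 0.709% of all genes were, and without sham rats 4 and 5 in the hippocampus 6 members were, where 1.51% of all genes were. Leaving out 1 rat at a time gave 5 to 20 members, the most without rat 1, where 4.29% of all genes were called. It gave 5 members when any 1 of rats 2, 3 and 4 was left out, where 0.657%, 0.72% and 1.02% of all genes were called, so the counts of members moved with the call rate over all genes. DESeq2 called 29 members, or 19.3%, where 6.2% of all genes were called.

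**Figure D4:**
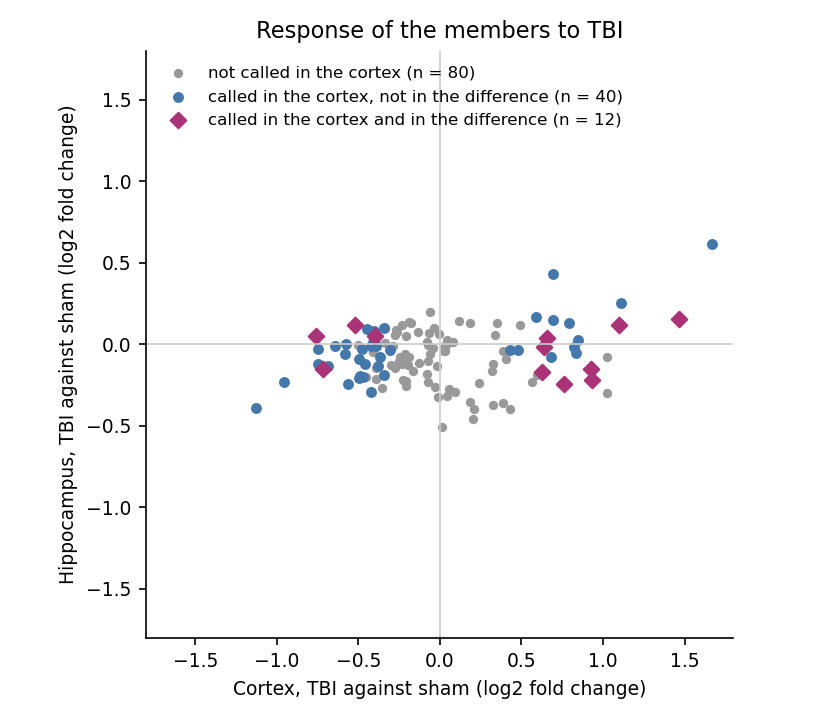
Log2 fold change of TBI against sham in the cortex (horizontal) and hippocampus (vertical) for the 132 members tested in the cortex and outside the uneven group. The points spread from -1.13 to 1.67 along the cortical axis and from -0.51 to 0.61 along the hippocampal axis, and the 12 diamonds mark members whose responses differed.

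In the thalamus, 136 members had enough counts to test, and 3 were higher and 1 lower in TBI rats (edgeR, adjusted p under 0.05), where 3.77% and 1.85% of 16605 genes tested were higher and lower. The median log2 fold change of the members was -0.07. It was 0.21 without rat 1, -0.23 without rat 6 and 0.05 without the thalamic libraries of both, so its sign depended on single libraries. The sham thalamus also entered the rule, so this contrast shares its sham arm with the choice too. With the list made from the TBI rats (142 tested), 1 was higher and 4 lower, and of the genes on both lists 1 was higher and 1 lower. Rank 136 measured 36.9, 29.1, 25.2, 31.9 and 26.8 scaled CPM in sham and 33.7, 61.8, 66.8, 44.2 and 50.3 in TBI rats. TBI rat 6 lay inside the sham range and the other 4 above it (log2 fold change 0.80, SE 0.18, edgeR adjusted p = 0.0289), and this member also rose in the cortex, by 0.59. Rank 144 measured 6.15, 5.69, 6.89, 5.76 and 6.18 in sham and 4.34, 2.15, 2.65, 3.79 and 3.53 in TBI rats. Its groups were apart (log2 fold change -0.87, SE 0.19, edgeR adjusted p = 0.0265), as they were in the cortex, where it changed by -0.69.

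The member at rank 140 moved in opposite directions. In the thalamus it measured 6.15, 6.52, 5.70, 7.55 and 8.01 scaled CPM in sham and 10.4, 8.82, 8.85, 11.7 and 10.8 in TBI rats, with all TBI libraries above the sham range (log2 fold change 0.60, SE 0.14, edgeR adjusted p = 0.0303). In the cortex it measured 29.0, 34.7, 32.7, 29.6 and 23.2 in sham and 23.9, 21.6, 18.9, 20.5 and 20.4 in TBI rats, where TBI rat 6 was above the lowest sham library (log2 fold change -0.48, SE 0.10, edgeR adjusted p = 0.00396). It was the 1 member called for a difference between cortex and thalamus (difference -1.03, SE 0.17, edgeR adjusted p = 0.00596), where 0.44% of 17745 genes tested were called. DESeq2 called 4 members there, or 2.76%, where 1.16% of all genes were. In the hippocampus the levels of rank 140, 71.3 to 114 in sham and 71.1 to 106 in TBI rats, overlapped throughout. The fourth member called in the thalamus, at rank 108, rose from 40.9 ± 5.11 to 56.6 ± 8.05 (SD, n = 5, log2 fold change 0.49, edgeR adjusted p = 0.0424), with TBI rat 10 inside the sham range. Groups did not overlap for 2 of the 136 members, ranks 140 and 144, or 1.47%, where 5.74% of all genes had groups apart.

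The thalamic libraries of sham rat 1 and TBI rat 6 stood apart in the level of the members. The shift of a member in a library was taken from its median over all the other thalamic libraries (log2). The median shift over the members was 0.59 in sham rat 1 and 0.33 in TBI rat 6, against -0.21 to 0.01 in the other 8. Sham rat 1 was the highest of 10 for 70 members and TBI rat 6 for 29. Summed, the members reached 2780 and 2343 scaled CPM in these libraries against 1589 to 1948 in the others. The shift was not seen for all genes tested (-0.01 in sham rat 1) nor for the 150 genes chosen by the same rule for the cortex (0.03 and 0.06). For ENSRNOG00000014971 the thalamus held 6.37 scaled CPM in sham rat 1 and 4.12 in TBI rat 6 against 0.00 to 0.23 in the other 8 rats. The member at rank 1 measured 20.5 in sham rat 1 against 1.49 to 2.63 in the other sham thalami.

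The thalamic counts depended on these libraries. Without rat 1, 9 members were higher and 1 lower, where 4.21% of all genes were called in either direction, and without rat 6, 5 were higher and 9 lower, where 14.5% were. With both thalamic libraries left out, an alternative added after these values were seen, 10 members were higher and 7 lower of 133 tested, where 7.51% and 5.11% of all genes were. Among these 17 members were all 4 called with 10 libraries, and 11 were also called in the cortex in the same direction, 1 in the opposite direction and 5 not. When any 1 of rats 3, 5, 7, 8 and 10 was left out, edgeR called 0 members in the thalamus. It also called 0 of all genes tested without rat 3, 5, 7 or 8, and 0.4% of them without rat 10. With all 10 libraries 9 members were higher and 12 lower at an unadjusted p under 0.05. These were 6.62% and 8.82% of the members tested, where 12.6% and 10.8% of all genes tested were higher and lower at that p. DESeq2 called 7 members with all 10 libraries, or 5.15%, where 11.3% of all genes were called.

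Between thalamus and hippocampus no member was called for a different response (edgeR interaction, smallest adjusted p = 0.159), where 0.0% of 17617 genes were, with 18 members higher and 9 lower at an unadjusted p under 0.05. These were 12.0% and 6.0% of the members, where 4.98% and 8.4% of all genes tested were, and this contrast shares its sham arm with the rule as well. Of the 18 higher members 7 were of the uneven group. Only 8 of the 14 uneven members had enough thalamic counts for the test within the thalamus. In all, 14 of the 150 members did not, and these entered the comparison mainly through their hippocampal counts. Without the hippocampal libraries labelled rats 3 and 8 no member was called either (edgeR, smallest adjusted p = 0.261). DESeq2 called 1 member, or 0.68%, where 1.11% of all genes were called. Without rat 6 edgeR called 10, or 6.67%, where 4.81% of all genes were. Without the thalamic libraries of rats 1 and 6, 12 members were called, 7 with a higher and 5 with a lower response in the thalamus, where 4.17% of all genes were.

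Beside the members, the same rule gave 150 genes for the cortex and 150 for the thalamus. Of the cortical list, 7 were called higher and 57 lower in the TBI cortex (edgeR), where 14.2% and 11.6% of all genes tested were. Of the thalamic list, 1 was called higher and 28 lower in the TBI thalamus, where 3.77% and 1.85% of all genes tested were. The median log2 fold changes of these lists in their own areas were -0.31 and -0.30. For the hippocampus-enriched genes in their own area the median was -0.08. All 3 lists share the choice by sham rats, and the differences between their medians were not tested.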

How the data were processed

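Poly-A RNA of 3 brain areas of 5 sham and 5 TBI rats was sequenced. The authors deposited raw read counts per Ensembl gene for each area (unit: counts, not normalized), made after alignment with STAR to Rnor_5.0, per the submitters' processing notes, which also name DESeq2 and R 3.1.0. The counting tool is not given in the sources used here, nor is use of strand, so overlapping and antisense genes may share reads. The study left out 2 poorly aligned sham hippocampal libraries that it does not name, and all 30 libraries were used here. Medians of the rule used plain CPM. Scaled CPM used TMM factors over the 30 libraries. Each area was tested with edgeR 4.0.16 in R 4.3.3 (TMM, robust quasi-likelihood test, filterByExpr with a minimum count of 10 and a total of 15), with Benjamini-Hochberg adjustment over all genes tested. SE is the log2 fold change over the square root of the F statistic. Alternatives were DESeq2 1.42.0, RLE factors, no filter, other member lists and libraries left out. The scripts were tested on simulated data. Python 3.11.15, numpy 2.4.6 and pandas 2.3.3 made the summaries.

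The members, lists and tests were chosen with earlier results of these data known. The named members were those with the highest ratios, the largest called changes in each area or, where none was called, the smallest unadjusted p, and those at the limit of the rule. Of these, 2 identifiers that rose and 2 that fell are printed. Members at ranks 50, 68, 92, 130 and 145 were also named after their values were seen. Fixed lists of cell type markers and pathways could not be applied, since 0 identifiers matched a name in the reference table. Columns of 0 other samples were left out. Each rat is a separate animal, and the 3 areas of a rat share it, so the rat as a block was an alternative. In TBI rats, deviations from the group mean of the same rat correlated between hippocampus and cortex with a mean of 0.20 (0.10 to 0.40) and between hippocampus and thalamus with a mean of 0.00 (-0.23 to 0.28) over the 5 rats. No 2 libraries of a group were duplicates: the smallest chi-square per degree of freedom was 15.1.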

Additional observations from a re-analysis of the deposited data

Results flagged for a closer look

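Single libraries stood apart from the other 4 of their group by Dixon's ratio in 12 of 78 groups of values checked. The critical value of 0.71 flags about 1 in 20 independent groups by chance. These groups shared libraries and members, and some members were named after their values were seen. The count of 12 can therefore not be set against that rate. Among TBI rats, rat 6 was the highest in the cortex for ENSRNOG00000024707 (9.28 scaled CPM), for ENSRNOG00000020501 (7.86) and for ENSRNOG00000014971 (6.10). In the thalamus rat 1 was the highest of the sham rats for ENSRNOG00000020501 (6.97), for ENSRNOG00000014971 (6.37), for the member at rank 1 (20.5) and for the median shift of the members (0.59), and rat 6 was the highest of the TBI rats for ENSRNOG00000014971 (4.12) and for the sum of the members (2343). In the hippocampus rat 5 was the highest of the sham rats for the member at rank 50 (3768) and for the sum of the members (51998), and rat 2 for the member at rank 136 (109).

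Responses to TBI that differed between areas by an interaction test (edgeR, adjusted p under 0.05) were those of 12 members between cortex and hippocampus, where 3.04% of all genes were called, among them ENSRNOG00000020501 (log2 difference 1.28) and the member at rank 145 (0.95), and of 1 member, at rank 140, between cortex and thalamus (-1.03). Without the hippocampal libraries labelled rats 3 and 8 the call was lost for ENSRNOG00000020501 (1.28, adjusted p = 0.113) and for rank 145 (0.96, adjusted p = 0.0512).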

How the results depend on the processing

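Counts of members called were 42 to 55 in the cortex when 1 rat was left out, 0 to 14 in the thalamus, 0 to 0 in the hippocampus, 133 to 136 for hippocampus against cortex and 148 to 149 against thalamus in TBI rats, 5 to 20 for the difference between cortex and hippocampus, 0 to 10 between thalamus and hippocampus (10 without rat 6, where 4.81% of all genes were called) and 1 to 2 between cortex and thalamus. In the same fits, 20.7% to 25.4% of all genes tested were called in the cortex and 0.0% to 14.5% in the thalamus. In the hippocampus it was 0.0% to 0.00586%. For the differences it was 0.657% to 4.29% between cortex and hippocampus. It was 0.0% to 4.81% between thalamus and hippocampus and 0.196% to 0.618% between cortex and thalamus. Overlap of the lists was 94 to 112. With DESeq2 the counts were 7 in the thalamus, 8 in the hippocampus, and 29, 1 and 4 for the differences of cortex and hippocampus, thalamus and hippocampus, and cortex and thalamus (11.3%, 1.51%, 6.2%, 1.11% and 1.16% of all genes were called). Without the hippocampal libraries of rats 3 and 8, 1 member was called in the hippocampus and 4 for cortex against hippocampus, and without sham rats 4 and 5 the latter was 6. With genes on both lists the thalamus had 2 and the difference between cortex and hippocampus 6. A hippocampal floor of 1 CPM gave 1 in the thalamus and 0 for cortex against thalamus, which was 2 with the TBI list and 0 with scaled CPM. Without thalamic rats 1 and 6 the thalamus had 17 and its difference from the hippocampus 12. The causes were not tested. Without a filter on low counts, ENSRNOG00000024707 had an adjusted p of 0.0736 in the cortex (log2 fold change 1.68).

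With the rat as a block (replicate block), 136 and 149 members were higher in the hippocampus than in cortex and thalamus, and the differences of response had 17, 0 and 1 members. The 17 were 8 higher and 9 lower, against 8 and 4 without the block, so the lower count moved by over 1.5 times. The block moved no total by over 1.5 times. In the other settings totals stayed within 1.5 times, but in some of them 1 direction moved by more. In the cortex (20 higher and 32 lower) it was 9 and 47 with the TBI list, 8 and 29 with genes on both lists and 17 and 21 with a floor of 1 CPM. In the thalamus (3 and 1) it was 1 and 4 with the TBI list, 2 and 3 without rat 2, and 3 and 0 with the list made without sham rats 4 and 5. For cortex against hippocampus (8 and 4) it was 2 and 9 with the TBI list, and 7 and 7, 6 and 2, 8 and 1, and 9 and 2 without rats 5, 7, 9 and 10. The tests of TBI against sham left out 4 members in the cortex and 14 in the thalamus, which had too few counts there.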
